A study of Mus musculus with 6 samples.

Results

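The cadherin and protocadherin genes of the mouse were followed through the open chromatin regions that differ between fibroblasts carrying the receptor mutation of fibrodysplasia ossificans progressiva (FOP) and wild-type fibroblasts. The rule for members uses symbols and no measured value, though the family was picked with earlier results of these data known. It takes the 92 protein-coding genes named Cdh or Pcdh followed by a number, or Pcdh followed by a, b or g, among 21887 protein-coding genes of the RefSeq annotation of GRCm38.p6. ATAC-seq, which tags open DNA with a transposase, was run on 3 libraries of Acvr1+/+ and 3 of Acvr1R206H/+ embryonic fibroblasts from day 13.5 embryos, cultured without a stated treatment. Acvr1 encodes a BMP type I receptor, and the R206H change makes it overactive. The mutant cells are heterozygous, both groups are cultures grown in medium with serum, and the labels do not tie a library to an embryo. The deposited data are positions of 2965 regions that the authors list as more accessible and 556 as less accessible in mutant cells. Neither counts nor fold changes nor p-values come with the positions, so depth per library is unknown, no value per library can be given, and the fibroblast identity of the cells could not be checked against marker expression.

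Cadherins are calcium-dependent adhesion proteins whose outer repeats bind those of a neighbouring cell. Classical cadherins join to the actin cytoskeleton through catenins bound to their tail; type I members, such as E- and N-cadherin, make strong adherens junctions, and type II members, such as VE-cadherin and cadherin-11, are often found on migratory, endothelial or mesenchymal cells. Protocadherins have other tails that lack the catenin-binding site. The clustered ones are made from tandem arrays of variable exons and give neurons their surface identity, while the non-clustered ones stand alone in the genome, often beside long stretches without genes. In mesenchyme, cadherin-11 and N-cadherin are the cadherins best known from condensing skeletal precursors and osteoblasts.

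A region was linked to a gene when its midpoint lay inside the gene's span, or, outside all spans, when that gene was the nearest within 100 kb. Cadherin genes were linked to 14 regions, 10 more and 4 less accessible in mutant cells, at 11 of the 92 members. A more accessible region was linked to 8 members (8.70%, exact 95% interval 3.83 to 16.4%), beside 7.27% of all protein-coding genes. A less accessible region was linked to 4 members (4.35%, 1.20 to 10.8%), beside 1.99% of all genes. Both shares of all genes lie inside the members' intervals. The 57 clustered protocadherins, none of which had a region, make up most of the 92; without them the shares were 22.9% (8 genes, 10.4 to 40.1%) and 11.4% (4 genes, 3.20 to 26.7%) of 35 members, with both intervals above the shares of all genes. Many cadherin genes are long and stand beside wide gaps, so each gene was also given a territory, the ground from which a region would be linked to it. Of the 30 members with a territory of at least 200 kb, 8 had a more accessible region (26.7%, 12.3 to 45.9%), beside 32.0% of all genes with such a territory. In the other direction it was 2 of 30 (6.67%, 0.818 to 22.1%), beside 5.45%. These 30 include 7 clustered protocadherins whose spans share ground; without them the shares were 8 of 23 (34.8%, 16.4 to 57.3%), above rather than below the 32.0%, and 2 of 23 (8.70%, 1.07 to 28.0%). Intervals here cover counting error only, and neighbouring regions are not independent.

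Per length of territory, the members had a lower rate of more accessible regions than all genes and a like rate of less accessible ones. The members' 15.5 Mb held 0.647 more accessible regions per Mb (exact Poisson 95% interval 0.310 to 1.19), against 1.20 (1.15 to 1.25) over the 1909.3 Mb of all genes. Without the clustered protocadherins it was 0.672 (0.322 to 1.24), an interval that holds the value of all genes. Less accessible regions came to 0.259 per Mb (0.0705 to 0.662), against 0.248 (0.226 to 0.271). Among the 14 regions 71.4% were more accessible (41.9 to 91.6%), and among all 3521 listed regions 84.2%. None of these differences was tested, since the lists hold no replicates. Without Pcdh7, the only member with more than 1 region of the same direction, 7 more accessible regions were left.

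Classical cadherins had more and less accessible regions, each at several genes, and the protocadherins had more accessible regions at a single gene. Of the 18 classical cadherins, 8 had a linked region. A more accessible one was at 5 (27.8%, 9.69 to 53.5%), beside 7.27% of all genes. A less accessible one was at 4 (22.2%, 6.41 to 47.6%), beside 1.99%, with Cdh6 in both counts. Gene length is not matched in these shares. Of the 69 protocadherins 1 had any, Pcdh7, with 3 more accessible regions (1.45% of genes, 0.0367 to 7.81%). No protocadherin had a less accessible region (0 of 69, upper limit 5.21%). Both intervals count the clustered genes as separate, though many of their spans share ground, so these intervals are too narrow. Of the 12 non-clustered genes, 1 had a more accessible region (8.33%, 0.211 to 38.5%) and 0 a less accessible one (upper limit 26.5%). The 57 clustered protocadherins together cover a territory of only 0.581 Mb, so the classes are closer when set against territory. Classical cadherins had 5 more accessible regions in 7.0 Mb, or 0.714 per Mb (0.232 to 1.67), and protocadherins 3 in 6.42 Mb, or 0.467 per Mb (0.0963 to 1.36). These intervals overlap widely. For less accessible regions the values were 0.571 per Mb (0.156 to 1.46) and 0 (upper limit 0.574), which overlap also. The difference between the classes was not tested. Among genes with a territory of at least 200 kb, 5 of 12 classical cadherins (41.7%, 15.2 to 72.3%) and 1 of 9 non-clustered protocadherins (11.1%, 0.281 to 48.2%) had a more accessible region, beside 32.0% of all such genes. With 7 clustered genes that share ground, the latter is 1 of 16 (6.25%). A less accessible region was at 2 of the 12 classical cadherins (16.7%, 2.09 to 48.4%), beside 5.45% of all such genes. It was at 0 of the 9 non-clustered protocadherins (upper limit 33.6%). Both intervals hold the 5.45%.

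**Figure D1:**
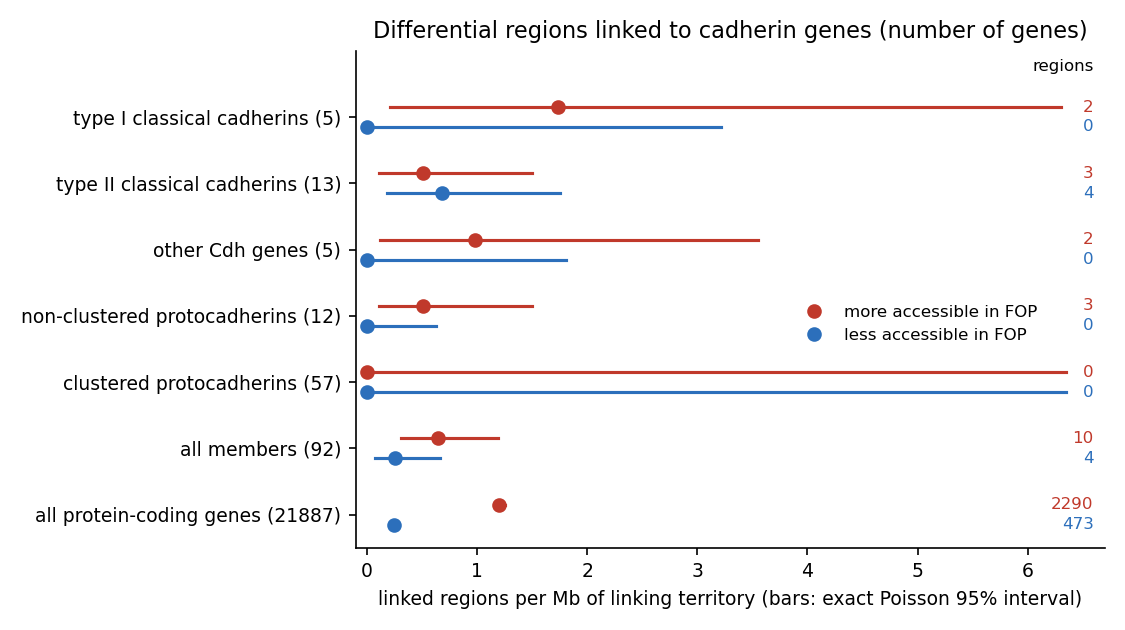
Linked regions per Mb of territory (horizontal axis) for each class of cadherin gene, for all members and for all protein-coding genes, with the number of genes in brackets and the number of regions at the right. Points are rates and bars exact Poisson 95% intervals; all 4 less accessible regions of the members belong to type II classical cadherins, and the members' interval for more accessible regions ends at 1.19, just under the 1.20 of all genes.

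The type II classical cadherins carried 7 of the members' 14 regions and all of the less accessible ones. Their 13 genes had 3 more and 4 less accessible regions, so 42.9% of their 7 regions were more accessible (9.90 to 81.6%), beside 84.2% of all listed regions. A less accessible region was at 4 of the 13 genes (30.8%, 9.09 to 61.4%), beside 1.99% of all genes, with gene length not matched. Per Mb of territory the rate was 0.683 (0.186 to 1.75), an interval that holds the 0.248 of all genes. These differences rest on few regions and were not tested. Cdh6, which encodes K-cadherin of kidney and neural crest, was the only member with regions of both directions. Its more accessible region (chr15:13070821-13071071, 251 bp) lay inside the gene, 103 kb from the start site, and the less accessible one (chr15:13244289-13244735, 447 bp) lay 68.1 kb outside the gene and 70.8 kb from that start. The gap between them was 173 kb, and each was the other's nearest listed region. Cdh7, a cadherin of the neural tube, held 1 more accessible region (chr1:110075813-110076304, 492 bp) at 57.5% of its span. The region of Cdh20 (chr1:105088799-105089669, 871 bp) was also more accessible and lay 93.8 kb outside the gene, close to the limit of a link; the next gene, Rnf152, was 188 kb away.

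The other less accessible regions of type II genes were at Cdh22, Cdh18 and Cdh5. That of Cdh22 (chr2:165189458-165190190, 733 bp) was inside the gene, 44.9 kb from its start, the shortest distance to a start site among the 10 member regions whose gene has one in the start-site table (median 301 kb, highest 444 kb). That of Cdh18 (chr15:23317334-23317804, 471 bp) lay at 82.8% of a span of 929 kb, with no other listed region within 1839.9 kb. Cdh5 encodes VE-cadherin, the adherens junction cadherin of endothelium. Its region (chr8:104061133-104062398) was the widest of the 14, at 1266 bp, and lay 39.8 kb outside the gene, inside the long non-coding RNA gene Gm39236. With non-coding genes allowed to take regions, 2 of the 4 less accessible regions stayed linked to members, and within 10 kb of a gene also 2.

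Sequence shows what stands at these genes' starts and in the part of a member region that the RefSeq tables cover. Start sites were found for 22 of the 92 members, and none of the 14 regions overlapped a member's start window. Cdh2, Cdh4, Cdh5 and Cdh13 had no start site there, so only 10 of the 14 could be checked against their own gene's start. The Cdh5 region did overlap the start window of Gm39236, and its 159 bases from chr8:104062240-104062398 (plus strand) are given first, as the only stretch of a member region with a sequence here. The others are the 250 bases before the start of Cdh6 (chr15:13173676-13173925, minus strand), of Cdh22 (chr2:165234738-165234987, minus strand), of Cdh20 (chr1:104768270-104768519, plus strand) and of Pcdh7 (chr5:57717831-57718080, plus strand), which stand for the gene with both directions, a gene with a less accessible region, a gene with a motif match and the only protocadherin with regions. All are GRCm38.p6 from RefSeq, read 5′ to 3′ on the gene's strand, with capitals for a TEAD motif on either strand.
Gm39236: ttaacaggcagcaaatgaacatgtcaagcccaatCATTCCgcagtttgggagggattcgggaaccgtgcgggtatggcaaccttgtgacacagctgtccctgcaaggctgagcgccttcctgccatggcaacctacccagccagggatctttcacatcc
Cdh6: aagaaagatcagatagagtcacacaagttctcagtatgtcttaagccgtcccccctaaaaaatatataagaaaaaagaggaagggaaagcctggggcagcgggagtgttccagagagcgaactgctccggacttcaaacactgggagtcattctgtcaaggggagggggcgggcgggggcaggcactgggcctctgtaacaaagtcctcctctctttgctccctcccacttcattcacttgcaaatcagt
Cdh22: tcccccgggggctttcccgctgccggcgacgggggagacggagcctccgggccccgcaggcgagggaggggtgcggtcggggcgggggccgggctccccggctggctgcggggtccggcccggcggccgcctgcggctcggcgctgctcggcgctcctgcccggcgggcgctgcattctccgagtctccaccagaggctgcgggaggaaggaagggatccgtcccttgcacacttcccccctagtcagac
Cdh20: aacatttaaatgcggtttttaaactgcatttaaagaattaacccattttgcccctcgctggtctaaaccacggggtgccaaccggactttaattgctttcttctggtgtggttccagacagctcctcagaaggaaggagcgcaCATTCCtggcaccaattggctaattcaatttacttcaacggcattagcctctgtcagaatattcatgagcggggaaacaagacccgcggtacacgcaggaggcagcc
Pcdh7: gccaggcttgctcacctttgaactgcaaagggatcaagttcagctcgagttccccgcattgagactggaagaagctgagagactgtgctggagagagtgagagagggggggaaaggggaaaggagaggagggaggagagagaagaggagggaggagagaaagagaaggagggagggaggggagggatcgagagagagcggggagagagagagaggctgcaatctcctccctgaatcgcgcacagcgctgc

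The motifs searched on both strands were CAGGTG (the E-box of Snail and ZEB repressors of cadherin genes), GGCGCC (a GC-rich SMAD motif), TGANTCA (AP-1) and GGAATG (TEAD); CATTCC is the last read on the other strand. Over 250 bases before the start, 12.6% of 32851 start windows of all genes held the TEAD motif, and 3 of the 22 members did (Cdh9, Cdh10 and Cdh20). The units differ: shares of all genes are of windows, while a member counts when any of its windows has a match. The 22 members have 25 windows. In the first 159 bases of each window 8.61% did, which is the comparison for the Gm39236 stretch. The E-box was in 17.2% of all windows and at 2 members, Cdh7 and Pcdh15; the SMAD motif in 9.59% and at 1 member, Pcdh17; and the AP-1 motif in 6.75% and at none of the 22. Cdh22 had a GC content of 77.6% before its start and Cdh6 51.2%, where the median of all windows was 52.4%. A match describes these letters only.

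Among the 5 type I classical cadherins, Cdh2 and Cdh4 each had 1 more accessible region, inside the gene, and none had a less accessible one. The share with a more accessible region was 40.0% (5.27 to 85.3%), beside 7.27% of all genes, with gene length not matched. Cdh2 encodes N-cadherin, the main classical cadherin of fibroblasts and many mesenchymal cells. Its region (chr18:16723890-16724740, 851 bp) was at 61.5% of the 220 kb span, 84.9 kb from the nearer gene end, and the nearest other listed region was 1698.9 kb away. Cdh4 encodes R-cadherin, known from retina and nervous system, and its region (chr2:179668669-179669486, 818 bp) stood at 49.6% of a span of 457 kb. Cdh1, which encodes the epithelial E-cadherin, Cdh3, which encodes P-cadherin, and Cdh15, the M-cadherin gene of muscle, had no linked region. Their territories were smaller, at 96.5, 111 and 42.2 kb, beside 420 kb for Cdh2 and 476 kb for Cdh4. The presence of a region thus goes with territory among these 5 genes, and a tie to cell type was not tested. The nearest listed region lay 1216.4 kb from Cdh1, 1329.7 kb from Cdh3 and 834 kb from Cdh15.

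Of the 5 remaining Cdh genes, Cdh13 and Cdh23 had 1 more accessible region each and Cdh16, Cdh17 and Cdh26 none. Cdh13 encodes T-cadherin, which is held to the membrane by a lipid anchor and lacks the tail of classical cadherins. Its region (chr8:118845825-118846405, 581 bp) was 479 kb from the nearer gene end, deeper inside a gene than any other member region, in a span of 1184.9 kb. Cdh23 encodes a cadherin of the tip links of inner ear hair cells. Its region (chr10:60360737-60361242, 506 bp) lay at 14.8% of the span and also inside Vsir, an immune checkpoint gene whose span overlaps Cdh23, so the link to Cdh23 is shared. Pcdh15, which encodes the partner of cadherin-23 in the tip link, had no linked region in a territory of 1753.6 kb.

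**Figure D2:**
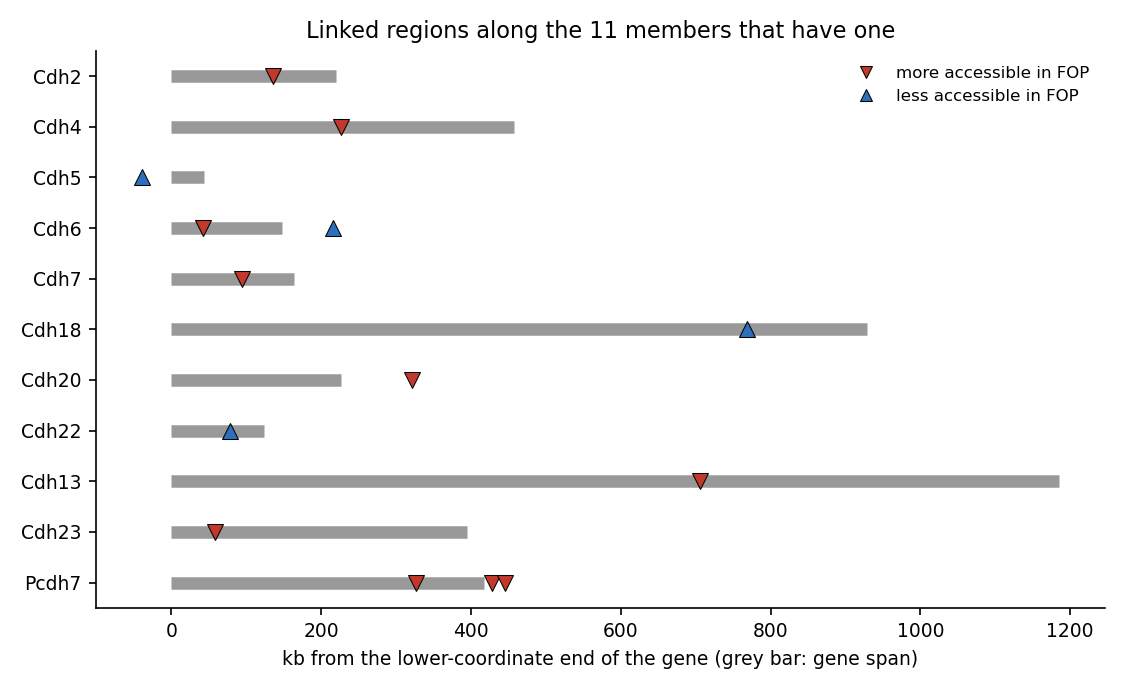
The 11 members with a linked region, each drawn from its lower-coordinate end (grey bar, span in kb on the horizontal axis), with more accessible regions as red and less accessible ones as blue triangles. Most regions stand inside the bars, 9 of 14, and Pcdh7 has 2 of its 3 just beyond the end of its span.

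Pcdh7, which encodes a non-clustered protocadherin of brain and other tissues, was linked to 3 more accessible regions. The first (chr5:58041971-58042306, 336 bp) was inside the gene at 78.2% of its span. The others lay beyond the far end of the gene, at chr5:58143663-58144456 (794 bp, 10.8 kb outside) and chr5:58161648-58162460 (813 bp, 28.8 kb outside), with 17.2 kb between them, the closest spacing among the member regions. The next protein-coding gene on that side, G6pd2, was 3646.8 kb from the last of them. In the same gap 2 further more accessible regions lay 220 and 527 kb from Pcdh7, past the limit of a link. With links limited to 10 kb, 1 region was left at Pcdh7.

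No other protocadherin had a linked region. The 11 other non-clustered genes include the long Pcdh9 (879 kb) and Pcdh11x (620 kb), and Pcdh1, Pcdh8, Pcdh10, Pcdh12, Pcdh17, Pcdh18, Pcdh19 and Pcdh20 besides Pcdh15. Pcdh11x and Pcdh19 are the 2 on the X chromosome. On the autosomes alone, the non-clustered genes had 0.634 more accessible regions per Mb (0.131 to 1.85). The nearest listed region was 9887.9 kb from Pcdh11x, 1036.7 kb from Pcdh19 and 5180.5 kb from Pcdh17. The clustered genes, 14 alpha, 22 beta and 21 gamma, span 912 kb of chromosome 18 (36930285 to 37841873), and no region lay in that stretch or within 817 kb of it. Their territory is only 0.581 Mb, since 3 predicted genes, Gm37013, Gm38666 and Gm38667, span the whole beta array and take the ground between its genes, so the interval for 0 regions reaches 6.35 per Mb, above the rate of all genes.

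Many cadherin genes flank long stretches of the genome without protein-coding genes, and the limit of 100 kb leaves most of that ground out. Between neighbouring protein-coding spans there were 711 gaps of at least 500 kb, and a member stood at 1 or both edges of 28 of them, 65.0 Mb in all. These 28 gaps held 31 more accessible regions, or 0.477 per Mb (0.324 to 0.677), against 0.840 per Mb (0.775 to 0.908) in the 683 gaps with no member beside them. Less accessible regions came to 5, or 0.0770 per Mb (0.0250 to 0.180), against 0.0889 (0.0689 to 0.113). A more accessible region was found in 39.3% of gaps beside a member and 39.5% of the others. These shares are not matched for length. The 683 other gaps held 754 Mb, so gaps beside a member were longer on average, with more ground to hold a region. Gaps with a classical cadherin at an edge had 0.606 per Mb (0.359 to 0.958) and gaps with a protocadherin 0.379 (0.202 to 0.647). The gap between Cdh11 and Cdh5 gave 7 of the 18 regions behind the first value, which was 0.387 (0.193 to 0.693) without it. With links at any distance the members took 28 more and 6 less accessible regions, 19 and 4 at classical cadherins and 7 and 1 at protocadherins. Per Mb of that wider territory the rates of more accessible regions were 0.720 (0.434 to 1.12) for classical cadherins and 0.283 (0.114 to 0.583) for protocadherins, against 1.10 (1.06 to 1.14) for all genes. Without the gap between Cdh11 and Cdh5 the classical cadherins had 0.479 (0.247 to 0.836).

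**Figure D3:**
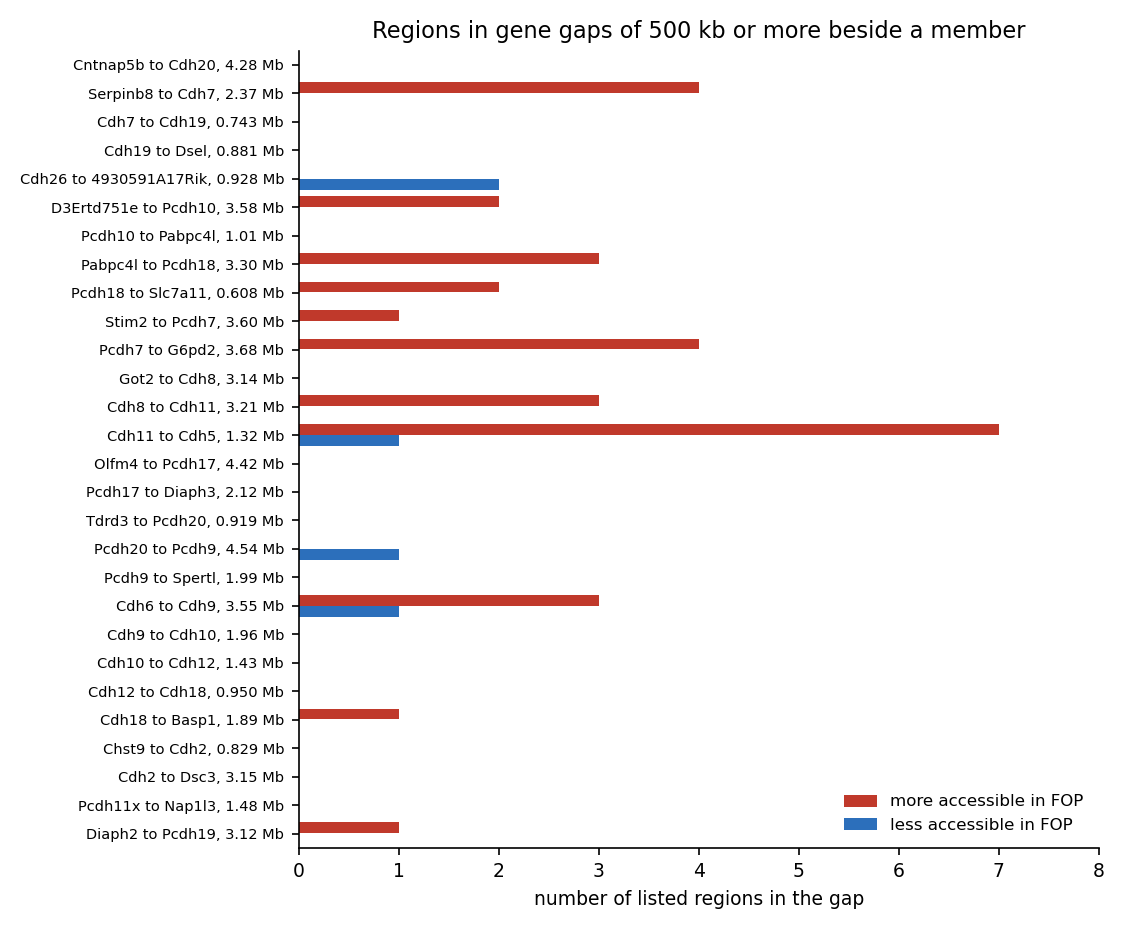
Number of listed regions (horizontal axis) in each of the 28 gaps of at least 500 kb beside a member, named by the genes at the edges and with the gap's length. The gap from Cdh11 to Cdh5 holds 7 more and 1 less accessible region, and no other gap has more than 4 of either kind.

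The ground between Cdh11 and Cdh5 stood out among these gaps and was singled out after its values were seen. Cdh11 encodes cadherin-11, also called OB-cadherin, a type II cadherin of mesenchyme and osteoblasts. The gene itself (chromosome 8, 102632095 to 102785493) had no linked region, and the nearest more accessible one was 115 kb away. The gap of 1.32 Mb between it and Cdh5 held 7 more accessible regions, or 5.32 per Mb (2.14 to 11), against 1.16 per Mb over chromosome 8. Of all 711 gaps 32 (4.50%) were as dense or denser, and none of the other 27 beside a member was. Without this gap, the gaps beside a member had 0.377 more accessible regions per Mb (0.242 to 0.561).

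Within that gap the first region (chr8:102900588-102901097) stood 115 kb beyond Cdh11. The second (chr8:103272183-103273115) was 487 kb beyond it, inside the non-coding RNA gene Gm32531. The remaining 5 stood between 648 and 1128.6 kb beyond Cdh11, and the spacing of all 7 ranged from 58.3 to 371 kb, so that they are spread over 1014.0 kb rather than in a single cluster. Their widths were 440 to 1142 bp. The 1 less accessible region is the one linked to Cdh5, at the far side of the gap. By nearest gene 3 of the 7 belong to Cdh11 and 4 to Cdh5. On the other side of Cdh11, 3 more accessible regions lay 141, 533 and 717 kb from the gene, and the rest of the 3.21 Mb toward Cdh8 held none. Which gene, if any, these regions act on cannot be read from positions.

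**Figure D4:**
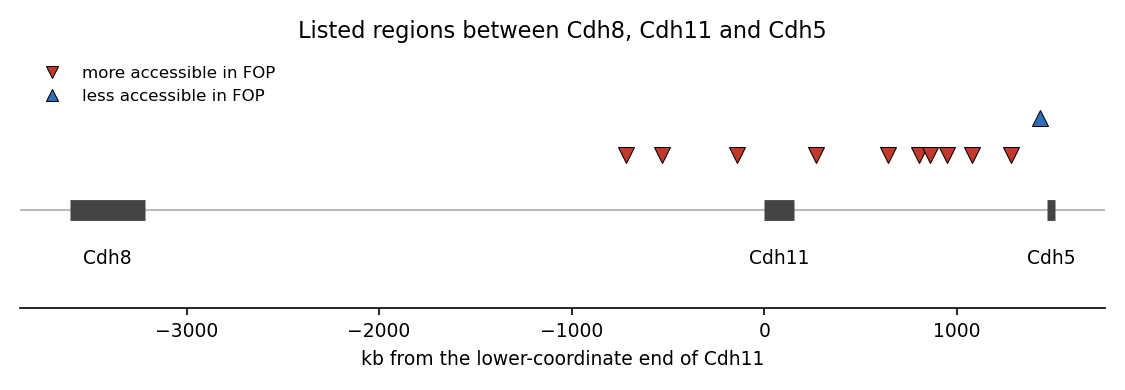
Listed regions from Cdh8 to Cdh5 in kb from the lower-coordinate end of Cdh11 (dark blocks: gene spans; red: more accessible; blue: less accessible). The 10 more accessible regions lie on both sides of Cdh11 and none within 100 kb of it, and the less accessible one is beside Cdh5.

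The members' regions lay farther from gene ends than the rest in their medians, in both directions. The more accessible ones had a median width of 688 bp (251 to 871), beside 576 bp for all more accessible regions linked to a gene, and 7 of 10 were inside a gene, beside 58.7%. Their median distance to the nearer gene end was 77.1 kb (10.8 to 479), beside 36.6 kb. The 4 less accessible ones had a median width of 602 bp, beside 610 bp, and a median distance of 56.6 kb (39.8 to 160), beside 18.5 kb. These medians rest on few regions and were not tested, and the greater length of cadherin genes moves with the distance. The median span was 96.2 kb for the members and 17.2 kb for all genes. Both spans are over genes with and without a region, and genes with a region alone were not compared.

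Genes that work with cadherins had linked regions at a handful of members, in shares above those of all genes for the catenins and partners. These lists are short, their shares are given without intervals, and gene length was not matched, so no excess over all genes can be read from them. Of 18 catenin and partner genes, 3 had a more accessible region (16.7%, beside 7.27% of all genes) and 2 a less accessible one (11.1%, beside 1.99%). They were Ctnnd2, which encodes delta-catenin, Afdn, which encodes afadin, and the adhesion receptor gene Nectin1 in the first direction, and Afdn and Nectin4 in the second. The catenin genes Ctnnb1, Ctnna1, Ctnnd1 and Jup had none. Of 27 other genes of the cadherin superfamily, 3 had more accessible regions (11.1%, beside 7.27%) and none a less accessible one: Fat4, a giant cadherin of planar polarity, had 2, and Dchs2, of the Dachsous family that binds Fat proteins, and Clstn2, a calsyntenin, 1 each. The desmosomal cadherin genes had none.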

How the data were processed

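ATAC-seq libraries of 3 wild-type and 3 mutant fibroblast cultures were made; the deposited files are a pair of lists of region positions (base pairs, no header), with the direction taken from the name of each list. Per the submitters' processing notes the authors used DESeq2, featureCounts, MACS2, Bowtie2, SAMtools, bedtools and Trimmomatic, in an order that is not stated, with builds mm10 and GRCm38. The cutoff of the lists, tool versions and any pooling of libraries were not given in the sources here, so ground without a listed region may be closed, unchanged or short of the cutoff.

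Midpoints were linked to protein-coding spans of chromosomes 1 to 19, X and Y in the RefSeq table of GRCm38.p6, which gives no exons; 2290 more and 473 less accessible regions were linked within 100 kb. Start sites and sequences came from the RefSeq start-window table. Shares have Clopper-Pearson and rates exact Poisson 95% intervals (Python 3.11.15, SciPy 1.17.1). The link rule and territories were checked on simulated positions. Every member with a region is named, as are the textbook cadherins of fibroblasts, epithelium, endothelium and muscle, and the genes of the further lists with a region. Members and lists were chosen with earlier results of these data known. The gaps, the limit of 200 kb, the motifs and the values without Pcdh7, without the clustered protocadherins and without the gap from Cdh11 to Cdh5 were chosen after seeing the data.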

Additional observations from a re-analysis of the deposited data

How the results depend on the processing

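Of 59 values of the 8 main counts under other settings, 47 stayed within 1.5 times the count reported. With links limited to 10 kb, less accessible regions fell to 2, all at classical cadherins and at 2 members, and the more accessible regions of protocadherins to 1. With links at any distance, more accessible regions came to 28, of which 19 were at classical cadherins and 7 at protocadherins, and 1 less accessible region was linked to a protocadherin. With non-coding genes competing, 2 less accessible regions at 2 members were left, both at classical cadherins. By the nearest gene end, 5 members had a more accessible region. Merging, overlap in place of midpoints and sharing of regions between genes moved no count past that factor, and sharing gives no count of members. No member region had another listed region closer than 17.2 kb, so merging within 10 kb left each as it was. None lay closer than 10.8 kb to its gene's end, and the widest was 1266 bp, so overlap could remove no link. These settings therefore say little about how stable the counts are. The 47 also include values where the 0 less accessible regions of protocadherins stayed 0. The counts are small, and which regions were listed cannot be set against the spread between libraries. No paired analysis was possible because the lists carry no value per library, and leaving out a library could not be done for the same reason.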

Other observations

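Transcription factors known to act on cadherin genes had more accessible regions at 2 of 10 genes (20%, beside 7.27% of all protein-coding genes) and no less accessible one (beside 1.99%). Twist2, a mesenchymal factor, had 2, at 10.4 and 85.9 kb outside the gene, and Tcf4, an E-protein, had 2, of which 1 was inside it. Snai1, Snai2, Zeb1, Zeb2 and Twist1 had none. Of 8 genes for the cutting and uptake of cadherins, 12.5% had a region in each direction: Adam10, the protease that sheds N-cadherin, had 1 more accessible region and Mmp14, a membrane metalloproteinase, 1 less accessible region. The shares of both lists rest on 1 or 2 genes and are given without intervals. Gene length was not matched, so no excess over all genes can be read from them.

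Marker genes of the cell types that cadherins define were read against the same shares of all genes. These were 7.27% with a more and 1.99% with a less accessible region. Gene length was not matched. Of 7 endothelial markers besides Cdh5, 2 had a more accessible region (28.6%), with 1 at Emcn and 2 at Erg. The other endothelial markers had no region, and none of the 7 had a less accessible one, the direction seen at Cdh5. Of 7 neural markers, Map2 had 1 more and Nes 1 less accessible region (14.3% in each direction). Of 7 fibroblast and mesenchyme markers, Prrx1 had 2 more accessible regions, both inside the gene (14.3% of the list). The 7 epithelial and 7 skeletal muscle markers had none in either direction. With 7 genes a list, each share rests on 1 or 2 genes. These lists show chromatin near marker genes, not the makeup of the cultures.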
